A study of Mus musculus with 44 samples.

Results

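Of the 5605 regions formed by joining 8 ChIP-seq peak lists from mouse macrophages, 843 were listed for NF-kB in untreated Dnmt3a knockout (KO) cells and in no other list. Peaks that overlapped by at least 1 bp were joined, and a region was kept when its peaks came from the untreated KO NF-kB list and from none of the other 7 lists. Each of the 843 regions held 1 peak, so they made up 27.5% of the 3065 peaks of that list (exact 95% interval 25.9 to 29.1%). Regions found in a single list were common, at 2765 of the 5605. In the other 7 lists the share of peaks found in no other list ran from 7.91 to 20.1%. The series holds 44 samples of bone marrow-derived macrophages from C57BL/6 mice, wild type (WT) or Dnmt3a KO, profiled by bisulfite sequencing (10), ATAC-seq (8) and ChIP-seq (26). The ChIP-seq samples include inputs, 1 for each genotype and treatment. Marrow was cultured in 10% serum with M-CSF at 30 ng/ml, and cells were used on day 8 to 10. The untreated KO NF-kB list merges 3 samples of KO cells that received no lipopolysaccharide (LPS). The other NF-kB lists (untreated WT, WT with LPS, KO with LPS) merge 3 samples each. For IRF3 they merge 3 (untreated WT), 2 (WT with LPS), 2 (untreated KO) and 3 (KO with LPS). LPS was given at 10 ng/ml for 6 hours. The labels say neither how Dnmt3a was deleted, nor which NF-kB subunit was precipitated, nor whether replicates came from separate animals.

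NF-kB is a family of dimeric transcription factors that inhibitor proteins hold in the cytoplasm of resting cells. In macrophages, bacterial products such as LPS activate kinases that remove these inhibitors, and NF-kB then enters the nucleus and binds at inflammatory genes. Dnmt3a adds new methyl groups to cytosines in DNA. A peak is a stretch where the authors reported an excess of precipitated DNA, and absence from a list means only that no peak was reported there. Each list merges its replicates, so there is no replicate spread, and the regions were chosen by presence and absence in these same lists. The values below are therefore descriptions, and no difference between sets of regions was tested. Intervals are exact Clopper-Pearson 95% intervals for counting error.

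Of the promoter windows in a RefSeq table (GRCm38.p6, the assembly named mm10), 3 were overlapped by one of the 843 regions, and their sequences are shown to set the DNA inside each region against the DNA just outside it. Each line gives the 250 bases before a start site, 5′ to 3′ on the gene's strand, with the bases inside the region in capitals.
Gm42309, a long noncoding RNA gene, chr4:83842052-83842301, minus strand: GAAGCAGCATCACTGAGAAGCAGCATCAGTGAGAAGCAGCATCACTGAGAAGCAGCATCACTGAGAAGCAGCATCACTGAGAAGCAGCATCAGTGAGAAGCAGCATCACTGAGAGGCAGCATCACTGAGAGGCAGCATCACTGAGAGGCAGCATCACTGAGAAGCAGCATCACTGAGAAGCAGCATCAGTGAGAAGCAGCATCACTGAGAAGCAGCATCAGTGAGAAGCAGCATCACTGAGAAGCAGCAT
Gm39519, a long noncoding RNA gene, chrX:72218604-72218853, plus strand: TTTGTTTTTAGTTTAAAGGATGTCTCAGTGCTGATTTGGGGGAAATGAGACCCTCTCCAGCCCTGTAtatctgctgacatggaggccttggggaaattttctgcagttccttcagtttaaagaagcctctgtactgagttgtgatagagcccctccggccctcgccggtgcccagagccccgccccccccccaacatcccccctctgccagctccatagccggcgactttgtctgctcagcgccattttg
Pla2g4c, a gene for a phospholipase A2, chr7:13329072-13329321, plus strand: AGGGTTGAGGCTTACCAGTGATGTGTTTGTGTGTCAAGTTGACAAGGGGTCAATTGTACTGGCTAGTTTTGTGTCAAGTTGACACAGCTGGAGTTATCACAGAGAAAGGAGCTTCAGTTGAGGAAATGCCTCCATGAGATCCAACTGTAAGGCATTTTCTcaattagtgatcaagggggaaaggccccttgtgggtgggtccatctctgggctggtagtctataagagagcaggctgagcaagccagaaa
The Gm42309 window lay wholly inside its region (885 bp, rank 2055 of the list by deposited p-value, deposited q-value 0.661), which also covered the start site. This window was a tandem repeat. Shifted by 32 bases against itself, 96.3% of its bases matched, a value reached by 3 of 32851 windows in the table (median window 34.0% at its own best shift). Its most repeated 12-base word, GAAGCAGCATCA, occurred 12 times, and 2 windows of the table held that word. The Gm39519 region covered 67 of the 250 bases and ended 184 bases before the start site (rank 3010, q-value 0.893). The Gm39519 window held 7 CpG pairs, all outside the region. The Gm42309 and Pla2g4c windows held 0, and the median window 6. The Pla2g4c region covered 160 bases and ended 91 bases before the start site (rank 3032, q-value 0.893). Its window held the word TGTGTCAAGTTG 2 times, a word found in 41 windows of the table. With only 3 windows, 2 of them partly outside their regions, the absence of a short motif says little about the 843 regions. None of the 3 windows held the NF-kB consensus by its name, present in 7.25% of all windows of this length on either strand. Nor did any hold the core of interferon-stimulated elements, 2 GAAA words spaced by 2 bases (2.98% of windows), TGANTCA, an AP-1 site (6.75%), or GAGGAAGT, a PU.1 site (2.44%), so no matches overlapped.

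By deposited p-value, the 843 regions lay in the lower part of their list. The best-ranked of them stood at rank 459 of 3065, the median at 2257, and 710 (84.2%) came after the first 1500 ranks. None had a deposited q-value under 0.05, against 422 of the other 2222 peaks of the list. The q-values of the 843 ran from 0.0631 through a median of 0.758 to 0.893, and 272 of them (32.3%) sat at that highest q-value, as did 272 of the other 2222 (12.2%). Their deposited signal value had a median of 9.34 (range 3.02 to 29.3), against 12.3 for the other peaks (range 3.16 to 153.0). Since rank and presence in other lists come from the same peak calls, these values describe the choice of regions and are not a result about NF-kB.

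The share of peaks found in no other list was lowest at the top of every NF-kB list and higher further down. In untreated KO cells it was 0.2% of ranks 1 to 500, 6.8% of ranks 501 to 1000, 19.6% of ranks 1001 to 1500 and 32.2% of ranks 1501 to 2000. It then stood at 52.6% of ranks 2001 to 2500 and 49.8% of ranks 2501 to 3000. In KO cells with LPS the first 3 shares were 4.8, 10.8 and 20.2%, in WT with LPS 2.0, 7.8 and 15.4%, and in untreated WT, whose list ends at rank 1462, 3.4% (17 of 500), 60 of 500 and 23.6%. The untreated KO list is the longest of the 8, and the next longest ends at rank 2494. Ranks 2501 to 3000 held 249 of the 843 regions and the last 65 ranks 37. With all NF-kB lists cut to their 1462 best-ranked peaks, 171 regions were found in the untreated KO list alone (11.7%, 10.1 to 13.5%). At that length 263 were in untreated WT alone (18.0%, 16.1 to 20.1%), 228 in KO with LPS alone (15.6%, 13.8 to 17.6%) and 166 in WT with LPS alone (11.4%, 9.77 to 13.1%). At equal length the untreated KO list thus did not hold the most unshared regions. The cut kept the untreated WT list down to its last peak and dropped the lower ranks of the longer lists. Equal length therefore need not mean an equal p-value cutoff.

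**Figure D1:**
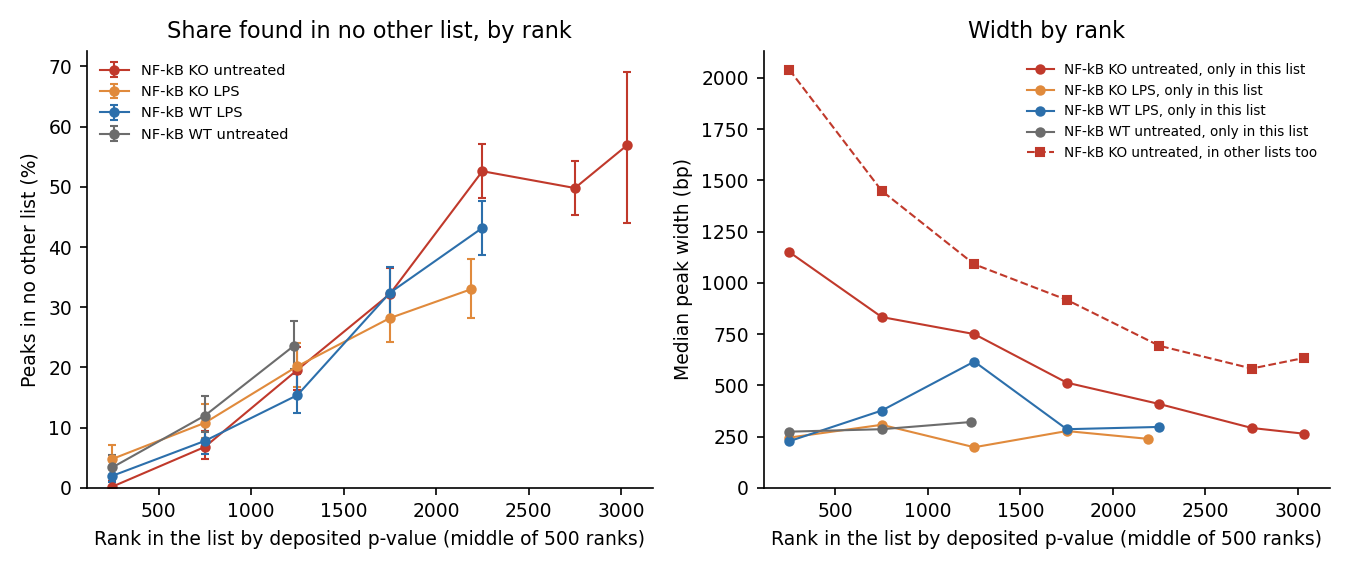
Left, the share of peaks in no other list (y axis, %, with exact 95% intervals) against rank by deposited p-value (x axis, in steps of 500 ranks) for the 4 NF-kB lists; all 4 are lowest in the first step, and untreated KO goes from 0.2% in the first step to 56.9% in the last 65 ranks. Right, median width (y axis, bp) of the same peaks, with the peaks of the untreated KO list that other lists share as a dashed line, which lies above the unshared ones in every step.

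The regions were narrower than the rest of their list. A wider peak can more easily overlap a peak of another list, so the widths too describe the choice of regions. Their median width was 410 bp (quartiles 206.5 and 707 bp, range 77 to 2724 bp), against 1203 bp for the other 2222 peaks. Of the 843, 318 (37.7%) spanned 100 to 300 bp, the size to which the chromatin was sheared, against 6.53% of the other peaks. A further 114 (13.5%) spanned 1000 bp or more, against 60.8%. Within steps of ranks the medians were 750 against 1090.5 bp at ranks 1001 to 1500 and 409 against 693 bp at ranks 2001 to 2500. The single unshared peak of ranks 1 to 500 spanned 1150 bp, against a median of 2040 bp. Peaks found only in 1 of the other NF-kB lists were narrow too, with medians of 246.5 bp in KO with LPS, 314 bp in WT with LPS and 298 bp in untreated WT. At ranks 501 to 1000, however, the unshared peaks of untreated KO had a median of 833 bp, against 307.5 bp in KO with LPS, 377 bp in WT with LPS and 286 bp in untreated WT. Those steps hold 34, 54, 39 and 60 unshared peaks. In the same step the IRF3 lists had medians of 915.5 bp in untreated KO, 755 bp in KO with LPS, 565 bp in WT with LPS and 430 bp in untreated WT. The width was thus not particular to untreated KO for NF-kB. At ranks 1001 to 1500 its 750 bp stood against 616 bp in WT with LPS and 198 bp in KO with LPS for NF-kB. Untreated WT had 321 bp at ranks 1001 to 1462.

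Most of the regions lay far from any peak of another list. The gap to the nearest one had a median of 152417 bp, and it was over 100 kb for 498 regions (59.1%) and at most 1000 bp for 43 (5.10%). For peaks found only in KO with LPS, WT with LPS or untreated WT the median gaps were 126866, 115915 and 132764 bp. Regions that lie near another list's peak could change side with the joining rule. Just inside the rule, the 5 closest regions missed another list's peak by 3 bp (chromosome 13, 59931880 to 59931956, nearest to a peak of WT with LPS), 8 bp (X, untreated WT), 35 bp (chromosome 2, KO with LPS for IRF3), 50 bp (chromosome 15, WT with LPS for IRF3) and 73 bp (chromosome 16, untreated WT for IRF3). The one 35 bp away lay inside Plcb4, a phospholipase C gene, and the other 4 had no protein-coding gene within 100 kb. All 5 were at the highest q-value of the list, 0.893. Just outside the rule, the 5 smallest overlaps began with 32 bp inside Gm21154, 49 bp near Nyap2 and 51 bp near Gm21149. Then came 51 bp near Wapl, a cohesin release factor gene. The last was 67 bp at a peak whose nearest protein-coding gene, Pdcd1, was 487159 bp away.

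Some of the 843 regions touched a neighbour. In 53 cases the peak began or ended exactly where another peak of the same list did, and in all 53 both carried the same signal value. In 44 of these the neighbour was itself one of the 843 regions, and in 9 it was a peak that another list shared. With touching regions joined, the 843 became 821 stretches. The Gm42309 region was one of them, touching a 240 bp region at rank 2598 with the same signal value of 8.67.

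**Figure D2:**
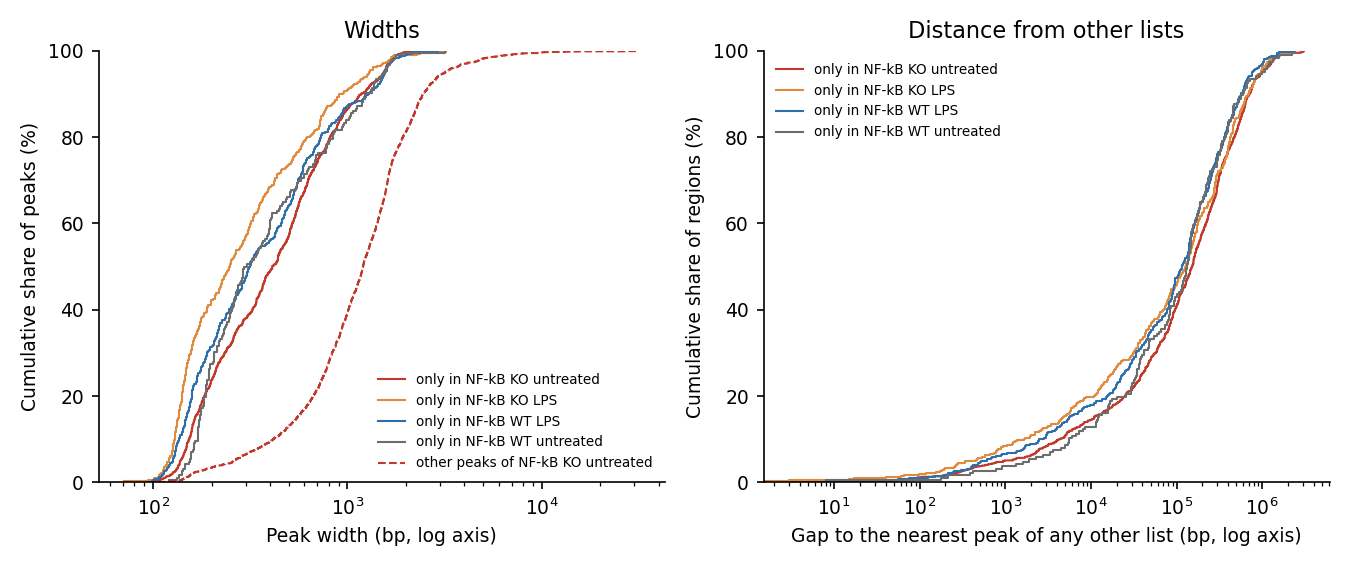
Cumulative share (y axes, %) of peaks by width (left, bp, log axis) and of regions by gap to the nearest peak of any other list (right, bp, log axis), for regions found only in each of the 4 NF-kB lists and, dashed, for the other peaks of the untreated KO list. The dashed curve, with a median of 1203 bp, lies well to the right of the curve for the 843 regions, with a median of 410 bp, and the 4 gap curves lie close together.

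A further 255 regions joined the untreated KO NF-kB list with IRF3 lists and no other NF-kB list. Of these, 76 were shared with the untreated KO IRF3 list alone. Among regions of the untreated KO NF-kB list that had exactly 1 other list (456), the NF-kB partner was WT with LPS in 129, KO with LPS in 99 and untreated WT in 38. The partner lists differ in length, with 2494, 2376 and 1462 peaks in the same order, and the part of list length in these counts was not tested.

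Relative to annotated genes, the regions lay mostly between genes. Of the 843, 268 overlapped the span of a protein-coding gene (31.8%, 28.7 to 35.0%), against 31.4% (29.5 to 33.4%) of the other peaks of the list and 29.4% (28.1 to 30.7%) of all other 4762 regions. The gene table gives no exons, so exonic, intronic and UTR positions were not separated. A gene end lay within 1 kb of 16 regions (1.90%, 1.09 to 3.06%), against 1.31% (0.876 to 1.87%) of the other peaks. The 237 genes whose span was overlapped had a median length of 142120 bp, and the 570 genes overlapped by the other peaks 129708.5 bp. The median over all 21887 protein-coding genes was 17169 bp. A longer gene is more easily overlapped wherever regions lie, so this difference in length is not a result about NF-kB. The distance to a RefSeq start site could be measured for the 818 regions outside chromosome 18, whose start sites were not used here. It was at most 10 kb for 121 of them (14.8%, 12.4 to 17.4%). Regions found only in KO with LPS reached 23.5% (19.6 to 27.8%) on this measure, and those found only in WT with LPS 12.8% (9.94 to 16.1%). The interval for KO with LPS lay above that for the 843 regions, while the one for WT with LPS overlapped it. Conversely, 24.4% (20.7 to 28.4%) of the regions found only in WT with LPS overlapped a gene span, an interval below that of the 843 regions.

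**Figure D3:**
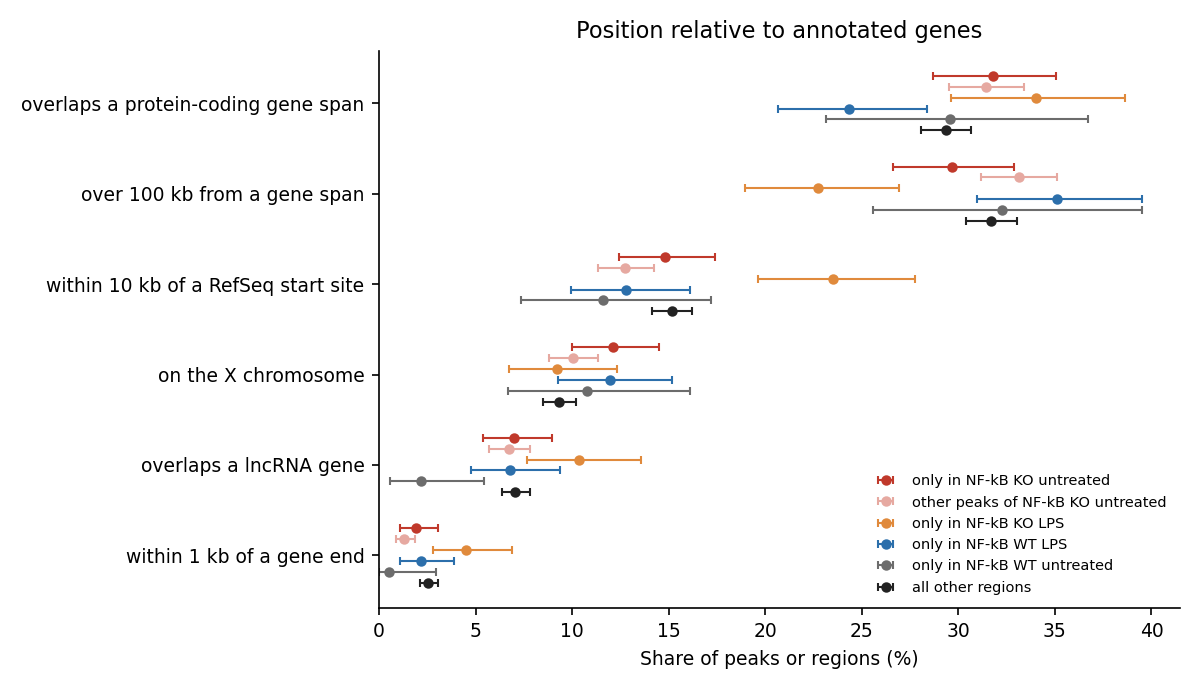
Share of peaks or regions (x axis, %, with exact 95% intervals) that meet each of 6 positions relative to genes or chromosomes (y axis), for the 843 regions found only in the untreated KO NF-kB list and 5 other sets. The 843 regions and the other peaks of their list have overlapping intervals at all 6 positions, while regions found only in KO with LPS stand apart at start sites, at 23.5% within 10 kb.

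Of the genes that carry signals to NF-kB, Map3k7, Ripk2 and Tbk1 had one of the 843 regions within 10 kb. At least 1 region lay within 10 kb of 350 of the 21887 protein-coding genes, which sets the background at 1.60% (262 genes or 1.20% within 1 kb, 774 or 3.54% within 50 kb). Of the 307 matched genes in 12 pathway lists, 7 had one (2.28%). None of the 5 NF-kB subunit genes, the 19 inhibitor and feedback genes, the 36 cytokine and chemokine genes or the 33 other inflammatory target genes had one. At 1.60%, fewer than 1 gene of each of these lists would be near such a region, so these counts of 0 say little. Of the 35 genes of upstream NF-kB signalling, 3 had one (8.57%), namely Map3k7, Ripk2 and Tbk1. These 3 span 59979, 40947 and 40340 bp, against a median of 17169 bp over all protein-coding genes. A longer gene more easily has a region within 10 kb, and the part of gene length was not tested. The lists were chosen with earlier results for Ripk2, Tbk1 and Ddx58 in these data known, so their count is no independent evidence. One of 28 pattern recognition receptor and sensor genes (3.57%), 1 of 38 interferon response genes (2.63%) and 2 of 32 macrophage identity genes (6.25%) had one. No gene of DNA methylation (20), chromatin silencing (21), lipid handling (16) or the immediate early response (24) had one. Against 1.60%, these counts of 0 say little too. The other peaks of the same list lay within 10 kb of 799 genes (3.65%) and of 8 pathway list genes, among them Tlr2, Ly96 and Nod1, which encode receptors or their partners for bacterial products.

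Tbk1, the kinase that phosphorylates IRF3, was the one signalling gene with more than 1 of these regions. The first spanned 1462 bp on chromosome 10 (121566368 to 121567829) at rank 1605, with a signal value of 10.5 and a q-value of 0.458. The second spanned 304 bp (121576826 to 121577129) at rank 2632, with a signal value of 8.85 and a q-value of 0.893. Both lay inside the gene, 18965 and 9665 bp from a start site. Between them lay a 1305 bp NF-kB peak of KO with LPS (rank 1244 of 2376, q-value 0.587). This peak was 4915 bp from the first and 2776 bp from the second. No other list had a peak within 10 kb of Tbk1, and the nearest peaks of untreated WT and of WT with LPS for NF-kB were 125241 and 125497 bp from the gene. The gene was thus listed for NF-kB in KO cells with and without LPS, at positions that did not overlap. None of these peaks had a q-value under 0.05.

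Ripk2, the kinase that relays signals from the sensors NOD1 and NOD2, had a 555 bp region inside the gene on chromosome 4 (16125603 to 16126157), at rank 1570 with a signal value of 10.0 and a q-value of 0.434. The nearest peak of any other NF-kB list was 145496 bp from the gene. Map3k7, which encodes the kinase TAK1 upstream of the IkB kinases, had an 891 bp region inside the gene on chromosome 4 (31986971 to 31987861), at rank 2728 with a signal value of 8.58 and a q-value of 0.893. Of the 7 genes, Map3k7 ranked lowest by its best region. Ddx58, which encodes the RNA sensor RIG-I, had the best-ranked one. It spanned 785 bp on chromosome 4 (40235761 to 40236545), 3280 bp from a start site, at rank 1030 with a signal value of 11.5 and a q-value of 0.250. No other list had a peak within 100 kb of Ripk2, Map3k7 or Ddx58.

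Macrophage identity genes were represented by Mertk, which encodes a receptor kinase for the uptake of dying cells, and Laptm5, which encodes a lysosomal membrane protein of blood cells. The Mertk region spanned 543 bp on chromosome 2 (128773282 to 128773824) at rank 1742, with a signal value of 10.1 and a q-value of 0.515. No peak of another list lay within 500 kb of Mertk, the nearest being 577547 bp away in KO with LPS for NF-kB. The Laptm5 region spanned 275 bp on chromosome 4 (130932962 to 130933236) at rank 1764, with a signal value of 9.34 and a q-value of 0.521, and KO with LPS had an NF-kB peak 12603 bp from the gene. Sp110, a nuclear body gene of the interferon response, differed from the other 6 genes in that all lists but untreated WT for NF-kB had a peak inside it. Its regions lay outside Sp110 on chromosome 1, 1894 and 6854 bp away, at ranks 1154 and 2144. Their signal values were 6.96 and 5.73, below the median of 9.34 of the 843 regions, and their q-values 0.289 and 0.707. Both lay inside Sp140, a related nuclear body gene, which is their nearest gene. None of the 50 matched marker genes of T cells, B cells, neutrophils, dendritic cells, erythroid cells or stroma had one of the 843 regions within 10 kb. Of all protein-coding genes 1.60% had one, so this count of 0 says little. Within 50 kb, 2 of the markers had one, the dendritic cell genes Itgax and Batf3, against 3.54% of all genes.

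**Figure D4:**
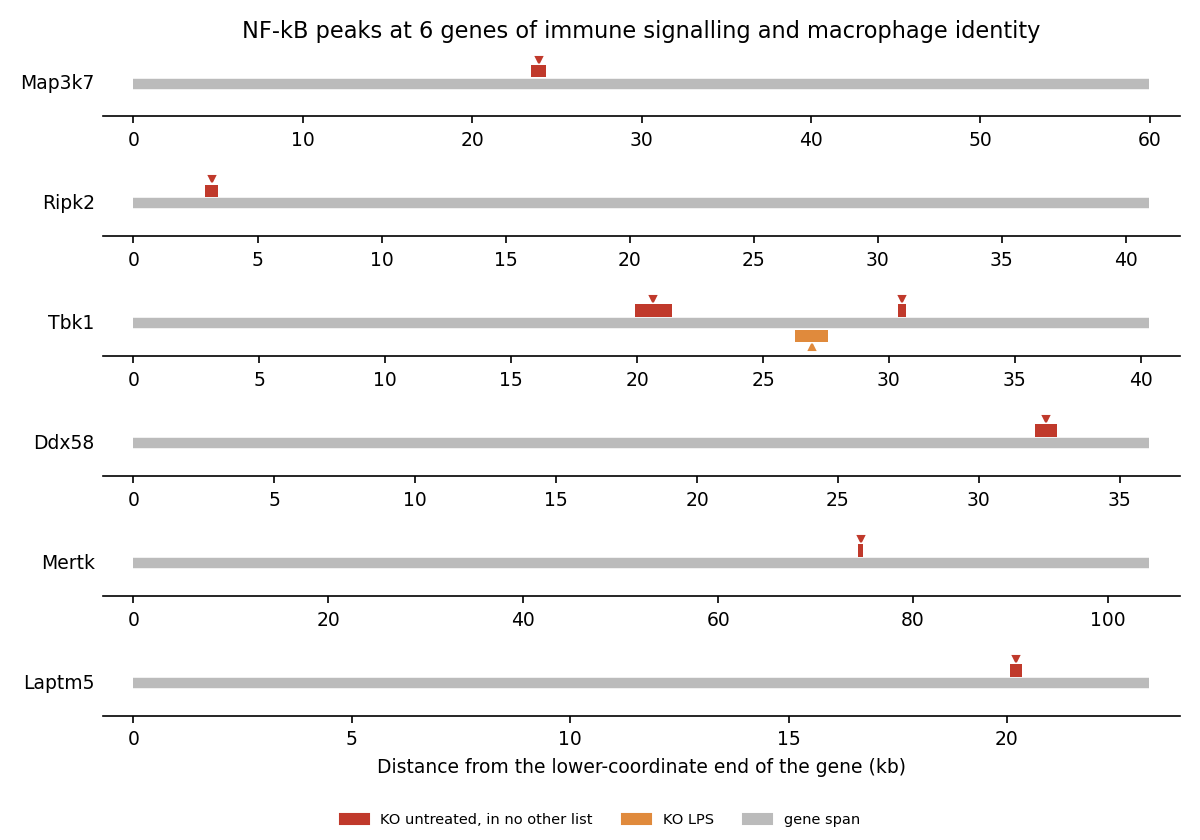
NF-kB peaks at 6 genes, drawn to scale along each gene (x axis, kb from the lower-coordinate end; grey bar, gene span), with regions found only in untreated KO above the bar and NF-kB peaks of KO with LPS below it. Each gene has 1 region except Tbk1, which has 2 on either side of a KO LPS peak.

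The best-ranked of the 843 regions were led by 1 inside Epg5, an autophagy gene, on chromosome 18 (78016358 to 78017507), 1150 bp wide. It stood at rank 459 with a signal value of 15.1 and a q-value of 0.0631, and the nearest peak of another list was 15783 bp away in untreated WT. The next one with a protein-coding gene within 100 kb lay 82314 bp from Adcyap1, a neuropeptide gene, at rank 564. Then came a region 11729 bp from Irx1, a homeobox gene, at rank 594. The region inside Trappc9, whose product is known to bind kinases of the NF-kB pathway besides its part in vesicle transport, spanned 1367 bp on chromosome 15 (72996682 to 72998048). It ranked 611 with a signal value of 13.3 and a q-value of 0.103, and KO with LPS had a peak 43349 bp away. Further regions among the best 15 lay inside Opn5, an opsin gene, and Gm29958, and outside Mvb12b, an endosomal sorting gene, Gm3993, Gc, the vitamin D binding protein gene, Ptbp3, an RNA-binding protein gene, and Kcnj5, a potassium channel gene. Their q-values ran from 0.108 to 0.134. The remaining 4 of the 15 had no protein-coding gene within 100 kb. A gene named here is the nearest protein-coding one, and no effect on it was measured.

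At gene ends, the best-ranked region that covered an end was that of Kdm8, a JmjC-domain dioxygenase gene, with 1047 bp on chromosome 7 (125462803 to 125463849), at rank 1643 and with a signal value of 12.4. It was 18183 bp from the nearest start site. The other 4 of the best 5 within 1 kb of an end lay at Gm7827, Gm29776, Speer4e and Gm21083, at ranks 1592 to 2004. The widest of the 843 regions spanned 2724 bp on the X chromosome with no protein-coding gene within 100 kb, at the highest q-value of the list. The next 4 spanned 1931 to 1997 bp, 1 of them inside Dip2a, 1 within 100 kb of Btbd35f8 and 1 within 100 kb of Shcbp1.

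Runs of at least 3 regions with gaps under 100 kb held 51 of the 843 regions in 13 places, and several of these lay in families of similar gene copies. The largest run held 11 regions over 139750 bp on chromosome 5 (14921659 to 15061408) around Speer4e, Gm10354 and Gm17019. Its regions were 134 to 365 bp wide, with signal values of 3.92 to 7.90, below the median of 9.34. The same stretch held 62 peaks from all 7 other lists. A second run on chromosome 5 held 6 regions around Gm21190, Gm21083 and Speer4d, beside 57 peaks from 6 other lists. At Sfi1, a centrin-binding protein gene, 3 regions with signal values of 3.62 to 5.04 lay among 23 peaks of other lists and 13 shared peaks of the same list. Further runs lay at A530032D15Rik and C130026I21Rik on chromosome 1, Spin2f, Pramel45 and the vomeronasal receptor genes Vmn1r157 and Vmn1r158. Reads can be shared between similar copies, and the labels do not say how the authors treated such reads.

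Other runs held no peak of another list within their bounds. At Kcnk2, a potassium channel gene on chromosome 1, 2 regions inside the gene and 1 lying 12778 bp outside it fell within 46737 bp (189194711 to 189241447) at ranks 1209, 2166 and 2537, with signal values of 11.1, 14.1 and 14.1. The 2 inside the gene touched each other, and counted as 1 stretch they would leave Kcnk2 short of the 3 regions of a run. The nearest peak of another list to any of the 3 was 292931 bp away. No peak of another list lay within the bounds of the runs at Gm7827 (3 regions over 49890 bp on chromosome 8), where KO with LPS had an NF-kB peak 4448 bp from one region, and near 1110032F04Rik (3 regions over 79704 bp on chromosome 3). Counted by gene, 310 genes had 1 region within 10 kb, 32 had 2 and 8 had 3. The 8 were A530032D15Rik, C130026I21Rik, Gm38510, Gm10354, Speer4e, Gm7827, Sfi1 and Ctnna3, a catenin gene that spans 1573570 bp. C130026I21Rik lies inside the span of Gm38510, and the same 3 regions count for both.

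By the nearest gene, 16 regions lay at olfactory receptor genes (1.90%), 15 at vomeronasal receptor genes (1.78%) and 17 at Zfp genes (2.02%). The other peaks of the list gave 1.53, 2.03 and 2.07%. Predicted Gm models were nearest to 72 regions (8.54%), against 7.47%. Rik clone models were nearest to 31 regions (3.68%), against 2.16% of the other peaks and 2.79% of all other regions.

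The X chromosome carried 102 of the 843 regions (12.1%, 9.97 to 14.5%), the most of any chromosome. The other peaks of the list had 10.0% (8.82 to 11.4%) there, so the intervals overlapped, and all other regions had 9.32% (8.51 to 10.2%). Chromosome 1 followed with 80 regions (9.49%, 7.60 to 11.7%, against 7.56%, 6.496 to 8.74%). Chromosome 12 had 25 (2.97%, 1.93 to 4.35%, against 4.995%, 4.13 to 5.99%). On every chromosome the interval for the 843 regions overlapped that for the other peaks, and no region of any list lay on Y.

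**Figure D5:**
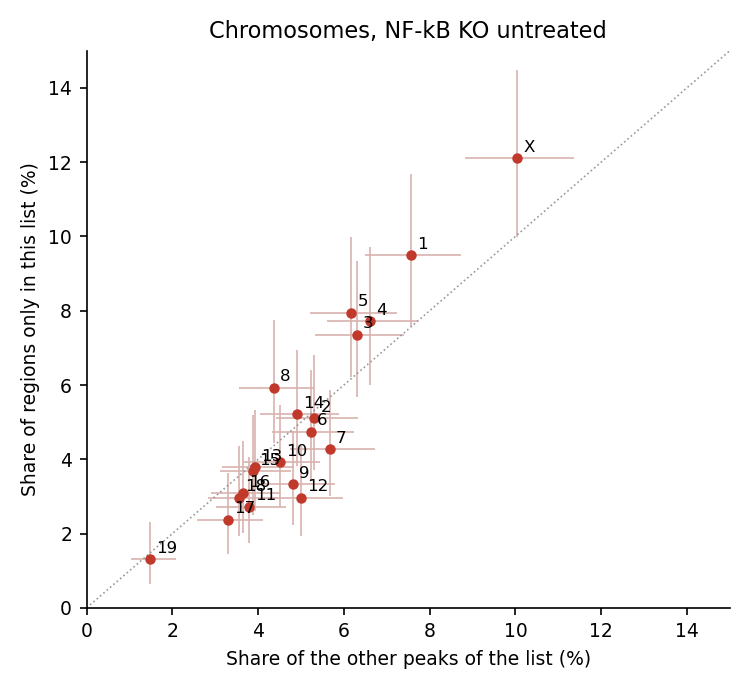
Share of the 843 regions (y axis, %) against the share of the other 2222 peaks of the untreated KO NF-kB list (x axis, %) on each chromosome from 1 to 19 and X, with exact 95% intervals and the line of equal shares dotted. The X chromosome has the highest share of both, at 12.1 and 10.0%.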

How the data were processed

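NF-kB and IRF3 binding was measured by ChIP-seq in WT and Dnmt3a KO macrophages with and without LPS. The authors deposited 8 peak lists, and per the labels each merges the replicates of its group. Coordinates are in mm10, and the submitters' processing notes name MACS2 2.1.1, HOMER 4.9, Picard 2.8.0, deepTools 3.5.0 and Trim Galore 0.4.5 without roles. The names of the lists hold the word chipr, and no source used here describes the merging method further. None gives the aligner, peak settings or read depth. Each deposited peak has a score and a signal value, treated as a score without stated normalization. It also has a deposited p-value and q-value, which are the authors' own, and peaks were ranked by p-value inside each list. What the p-value and q-value measure is not stated, so rank is not read as strength of binding. Ties in p-value were ordered by signal value, width and position.

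Only chromosomes 1 to 19, X and Y were kept, and peaks were joined at 1 bp overlap with Python 3.11.15 and pandas 2.3.3. The joining and distance steps were tested on simulated data. Genes came from a RefSeq table of GRCm38.p6, and start sites and promoter sequences from its promoter table. The regions and gene lists were chosen with earlier results of these data known. Of 312 pathway symbols 307 matched, and of 51 marker symbols 50 did. Genes were named for the best-ranked 15 regions, the 5 best-ranked within 1 kb of a gene end, the 5 widest, the 5 on each side of the joining rule, fixed-list genes within 10 kb, genes with 3 regions or more within 10 kb and genes whose promoter is printed. Kcnk2 and the other run genes were chosen after their values were seen. Base composition and motifs of the regions themselves, planned where a genome was given, were not analysed.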

Additional observations from a re-analysis of the deposited data

How the results depend on the processing

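The number of regions found only in the untreated KO NF-kB list was 843 and depended mainly on which peaks entered. Required to have a q-value under 0.05, 0 regions (0% of the 422 such peaks) remained. Every list cut to the 1169 peaks of the shortest gave 146 (12.5% of the list, against 27.5%), every NF-kB list cut to 1462 gave 171 (11.7%), and peaks under 500 bp gave 482 (62.35% of 773 such peaks). Against NF-kB lists alone 36.9% of the list was unshared, and without the untreated KO IRF3 list 30.2%. Joining across gaps of 500 or 1000 bp, or requiring overlap of 50% of the shorter peak, gave 776 to 868. The share of regions within a set distance of a gene end rose from 1.90% at 1 kb to 8.78% at 5 kb. Within 50 kb instead of 10 kb, 774 genes instead of 350 had a region, and 11 pathway list genes instead of 7. The share overlapping a gene span ranged from 30.9 to 32.9% over 4 alternatives, 2 of them (the centre of the region, and regions that touch no other peak) chosen after seeing the data. No paired analysis was possible because each list merges its replicates, and for the same reason no replicate could be left out. Read depth is unknown, so a region missing from a list may have been missed for lack of reads.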
